A study of Lathyrus oleraceus with 9 samples.

Results

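The genes described here are 37 oligonucleotide probes for enzymes, transporters and lipid-binding proteins of amino acid, nucleotide, coenzyme, lipid, inorganic ion and secondary metabolism in ageing pea seeds. They are the probes that the study's list of ageing-responsive probes places under the KOG headings E (amino acid transport and metabolism, 10 probes), F (nucleotide, 1), H (coenzyme, 3), I (lipid, 11), P (inorganic ion, 3) and Q (secondary metabolites, 9). KOG is a catalogue that sorts eukaryotic proteins by function. The 6 headings hold 42 probes, of which 5 were set aside by the rule together with 2 others that stand under no heading. The members are thus 37 of 5246 probes on the array and of 717 on the list, and they carry 33 distinct accession numbers.

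Seeds of the cultivar Alaska Early were brought to a moisture content of 12% at a relative humidity of 60%, and these served as the non-aged group. The aged groups were seeds of the same treatment kept in sealed bottles at 50°C for 8, 12 or 15 d. Each of the 9 arrays set RNA of aged seeds against RNA of non-aged seeds in 2 colours, with 3 arrays per ageing time. Every replicate was a pool of 20 whole seeds, which the labels describe as a separate biological replicate. The adjusted p-values below measure the spread between these arrays only. Equal amounts of total RNA were labelled. A lower ratio from fewer cells of a type and one from less of the transcript per cell thus cannot be told apart. The paper reports partial breakdown of RNA from the start of ageing, and describes the RNA put on the arrays as of satisfactory quality. It proposes that decay of stored mRNA may add to the lower transcript levels, beside transcriptional regulation. Whether such decay lowered the ratios given here was not tested. The values are log2 ratios, aged over non-aged, and they hold no level for either sample, so that the seed label was not checked against marker genes and levels of different probes were not compared.

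Dry seeds hold stored mRNA and slow metabolism. On imbibition the embryo draws on its stored reserves, and the methionine cycle supplies the methyl groups used in making sterols, lignin and modified nucleic acids. In that cycle methionine synthase makes methionine, S-adenosylmethionine synthetase activates it, methyltransferases use it, and adenosylhomocysteinase clears the product that would otherwise inhibit them. Lipid metabolism includes the sterols and sphingolipids of membranes, and the heading of secondary metabolism gathers the cytochromes P450 and other oxidoreductases with many substrates.

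Most of these metabolic transcripts were lower in aged than in non-aged seeds. At all 3 ageing times the same 28 probes had a mean log2 ratio below 0 and the same 9 above 0, with no probe changing sign. Below 0 at 8, 12 and 15 d were 387, 389 and 389 of the 717 listed probes, and 2545, 2535 and 2470 of all 5246. The kept sign only describes the members, since probes far from 0 were chosen. On the list the ratios at 8 d and 15 d also went together (Pearson r of 0.98). A probe was called at a Benjamini-Hochberg adjusted p under 0.05 in limma and a mean ratio that lay 1 or more from 0 on the log2 scale, that is a 2-fold change. At 8 d 3 members were called up-regulated and 17 down-regulated, where 2.52% and 4.48% of all probes were called. At 12 d the numbers were again 3 and 17, against 3.13% and 4.77% of all probes, and at 15 d they were 8 and 24, against 5.64% and 7.09%. The list was drawn up from these same ratios, so these counts describe the members and were not tested. The medians over all members were -0.97, -0.96 and -1.07 on the log2 scale in the order of ageing time. Over the whole array they were 0.01, 0.01 and 0.02, and over the study's list -0.71, -0.81 and -1.00.

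Of the 37 members 14 were called at all 3 times, 10 on the 15 d arrays alone, 4 at 12 d and 15 d, 4 in both 8 d and 15 d seeds, 2 after 8 d alone and 2 after 12 d alone. In that order the numbers were 304, 254, 81, 29, 29 and 24 of all 5246 probes. On the study's list they were 297, 239, 80, 29, 23 and 23 of 717. The probe of a plasma membrane proton pump (PSOLI04686) was called at no time, with a largest mean of 0.97. Next to the threshold were Patellin-3 at 1.00 in size, a branched-chain amino acid aminotransferase at 1.02, an amino acid transporter at 1.03 and 4-coumarate-CoA ligase at 1.03. On the other side of it were the unlisted probes PSOLI04754 and PSOLI05203, both at 0.997, while 30 unlisted probes reached 1 on the deposited values.

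**Figure D1:**
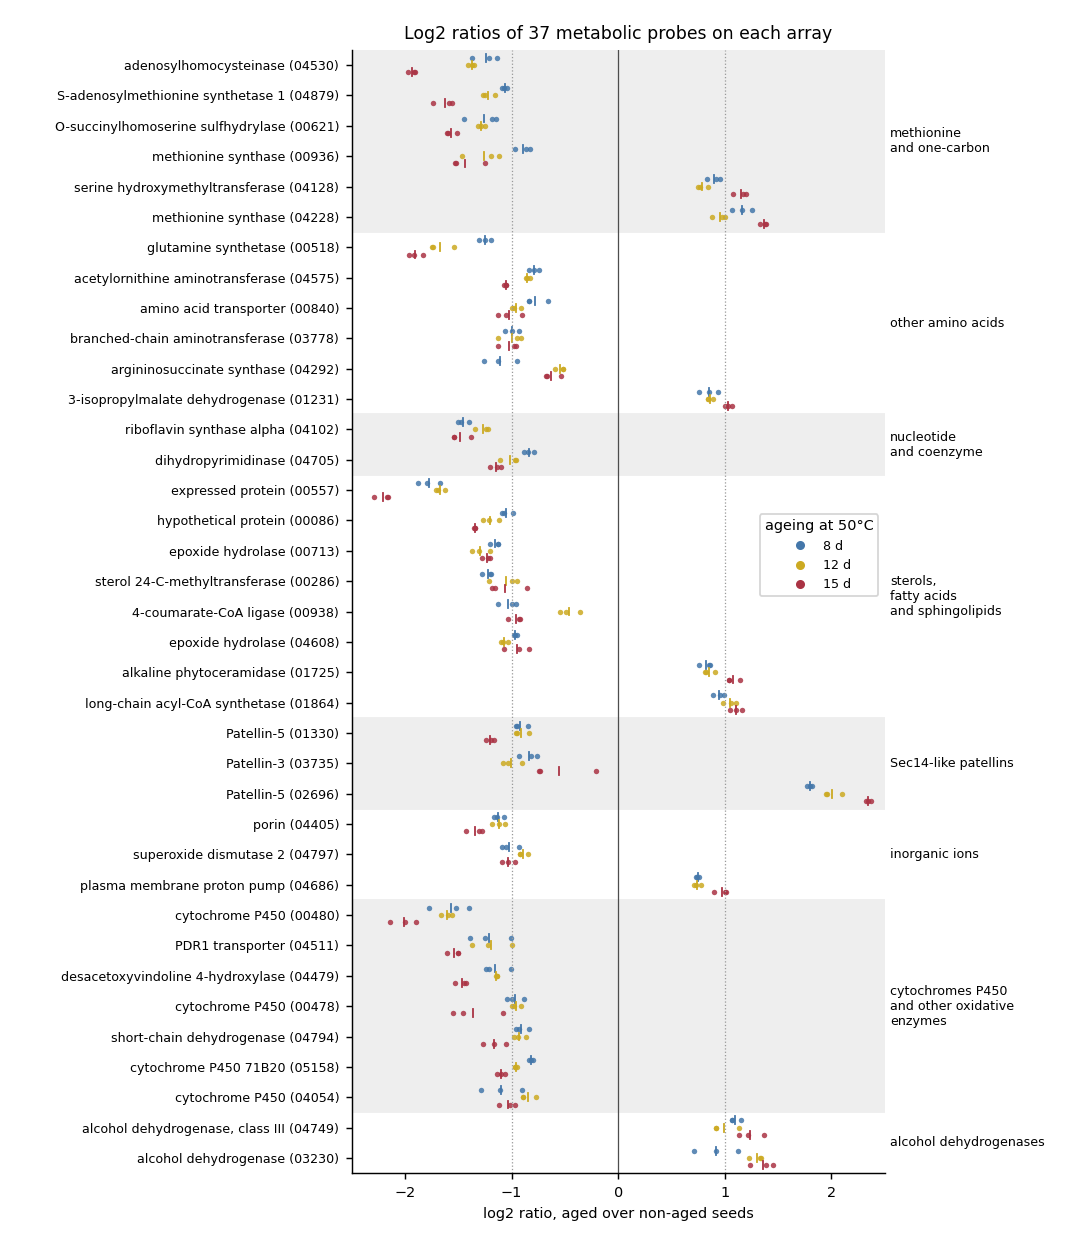
Log2 ratio, aged over non-aged (horizontal axis), of the 37 probes, grouped by role, with 1 point per array, a short bar at the mean of 3 arrays and 1 colour per ageing time. Dotted lines mark log2 ratios of -1 and 1. The 28 probes to the left of 0 and the 9 to the right keep their side at 8, 12 and 15 d.

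By heading, the coenzyme probes (H) had the lowest median of the 6 headings at each time. All 3 were called down-regulated at 8, 12 and 15 d, and their median log2 ratio was -1.24, -1.27 and -1.63 in that order. The amino acid probes (E) had medians of -0.84, -0.91 and -1.03, with 7 of 10 below 0. At 15 d 3 of them were called up-regulated and 6 down-regulated. The 11 lipid probes (I) had medians of -0.97, -1.00 and -0.96, with 3 called up- and 5 down-regulated at 15 d. The median of the 9 probes of secondary metabolism (Q) was -0.97, -0.96 and -1.16, and 7 were called down-regulated at 15 d, against 4 at 8 d and 3 at 12 d. The 3 inorganic ion probes (P) had medians of -1.02, -0.90 and -1.03, and with the 1 set-aside probe of that heading, Ferritin-3 (PSOLI00243), put back they were -0.14, -0.078 and -0.03. For comparison, the 15 probes of the energy heading (C) had medians of -1.07, -1.06 and -1.37 and the 20 of the carbohydrate heading (G) of -0.81, -0.85 and -1.08. None of these differences between headings was tested, since every heading holds only probes picked on these ratios.

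**Figure D2:**
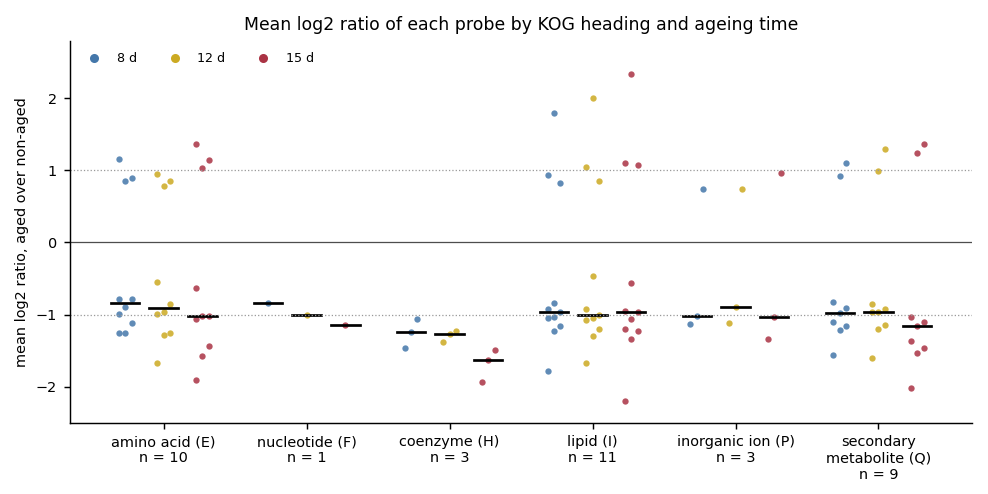
Mean log2 ratio of each probe over 3 arrays (vertical axis) by KOG heading, with 1 point per probe, a black bar at the median of the heading and 1 colour per ageing time. The coenzyme heading has no probe above 0, and the lipid heading holds both the lowest (-2.21) and the highest (2.34) probe at 15 d.

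The question put to the 3 ageing times was whether the metabolic transcripts moved on as ageing went on. Differences between times were tested as limma contrasts with p-values adjusted over all 5246 probes. The same ratios entered the choice of members, and a probe listed for passing the threshold at 1 time alone was limited in its change by that choice. Passing at 15 d alone goes with a move away from 0, and 10 members did so, against 2 at 8 d alone. Counts of members further from 0 are thus in part set by that choice, as are those of the study's list. Between 8 d and 15 d 27 of the 37 members differed, against 38.0% of all probes and 78.8% of the study's list. Of these 26 lay further from 0 at 15 d, against 27.4% of all probes, and 1 lay closer to 0, against 10.6%. On the study's list 540 of the 717 probes lay further from 0 and 25 lay closer. Between 8 d and 12 d 10 members differed, against 18.5% of all probes, 5 of them away from 0 (9.84% of all probes) and 5 towards it (8.69%). That count was 6 without replicate 1 of 8 d and 6 without replicate 1 of 12 d. Between 12 d and 15 d 23 differed, against 24.2% of all probes, 22 of these away from 0 (19.4% of all probes) and 1, Patellin-3, towards it (4.78%).

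Log2 ratios were spread more widely on the 15 d arrays as a whole. The median absolute deviation over all probes was 0.386 on each 8 d array, 0.400 on each 12 d array and 0.445 to 0.460 on those of 15 d. It was thus near-equal among arrays of the same time and not between times. Whether the authors scaled the arrays of each time on their own is not stated. The spread between arrays of the same time, which the tests use, therefore holds little difference in scale. With every array brought to the same median absolute deviation, 11 members differed between 8 d and 15 d, against 26.7% of all probes, 6 further from 0 (13.9% of all probes) and 5 closer to it (12.8%). Only 7 members differed under both scalings, namely methionine synthase (PSOLI00936), adenosylhomocysteinase, S-adenosylmethionine synthetase 1, glutamine synthetase, argininosuccinate synthase, Patellin-5 (PSOLI02696) and an alcohol dehydrogenase (PSOLI03230). With this scaling 8 members differed between 8 d and 12 d, against 19.0% of all probes, and 9 between 12 d and 15 d, against 11.7%. The differences given below are those of the deposited values. In the rest of these Results the value at equal deviation stands beside a named probe's difference where it changes the call.

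**Figure D3:**
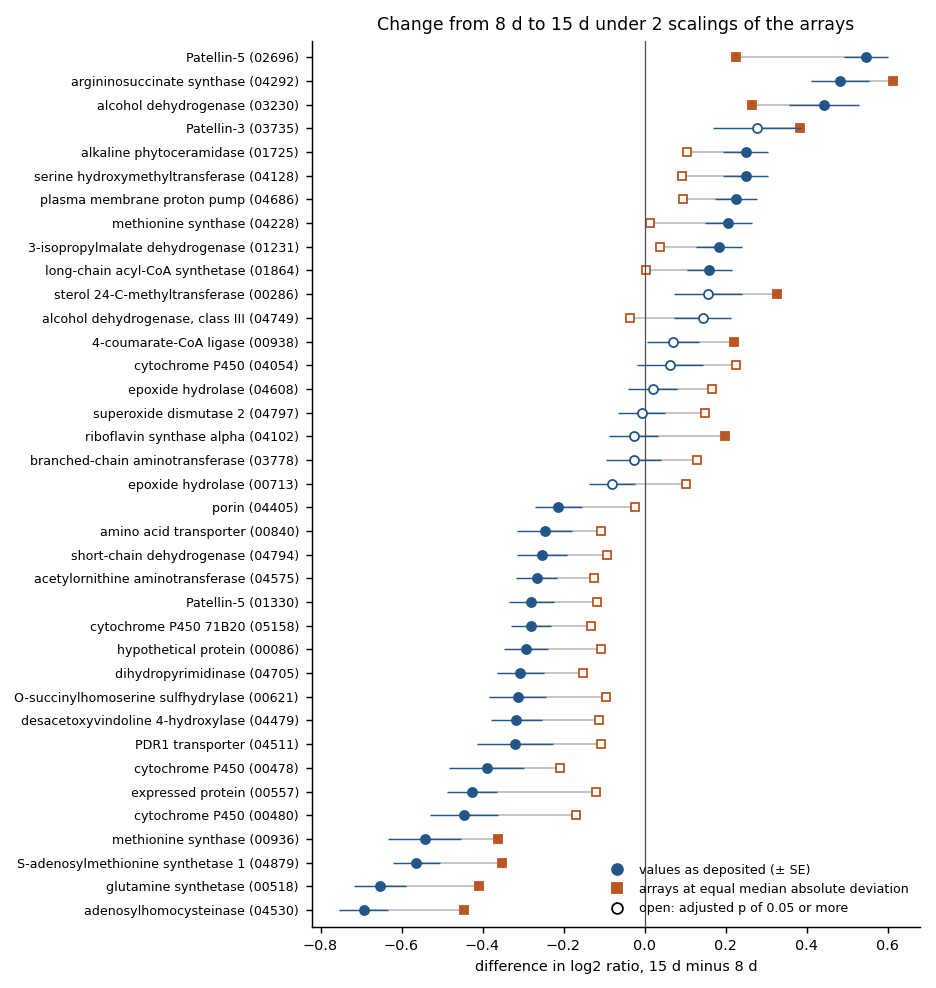
Difference in mean log2 ratio between 15 d and 8 d (horizontal axis) of each of the 37 probes, on the deposited values (circles, with the standard error of the limma contrast) and with all arrays at the same median absolute deviation (squares). Filled symbols had an adjusted p under 0.05, which holds for 27 circles and 11 squares.

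Enzymes of the methionine cycle and of one-carbon metabolism made up 6 of the members. By the test all 6 lay further from 0 at 15 d than at 8 d, 4 of them lower and 2 higher. That held for 27.4% of all probes and for 540 of 717 on the study's list. With arrays at equal deviation it held for 3 of the 6, against 13.9% of all probes and 244 of 717 on the list. Adenosylhomocysteinase (PSOLI04530), which splits S-adenosylhomocysteine, had log2 ratios of -1.21, -1.14 and -1.37 on the 8 d arrays, -1.37, -1.35 and -1.41 on those of 12 d and -1.91, -1.97 and -1.92 on those of 15 d. All 15 d arrays lay below all others, while those of 8 d and 12 d met. The fall between 8 d and 15 d was -0.69 ± 0.06 (SE, adjusted p of 7.5e-07), and with arrays at equal deviation it was -0.45. Its transcript was 3.82-fold lower than in non-aged seeds at 15 d.

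S-adenosylmethionine synthetase 1 (PSOLI04879), which makes the methyl donor S-adenosylmethionine, had -1.04, -1.07 and -1.09 at 8 d, -1.25, -1.16 and -1.27 at 12 d and -1.56, -1.74 and -1.59 at 15 d. No array of one time overlapped with those of another. Its log2 ratio fell by 0.56 between 8 d and 15 d (adjusted p of 3.9e-06). A second probe of that product name (PSOLI00486), not a member, had lower means of -2.18, -2.28 and -2.97 at 8, 12 and 15 d. O-succinylhomoserine sulfhydrylase (PSOLI00621), a sulfur-transferring enzyme related to those of methionine synthesis, had -1.45, -1.15 and -1.18 at 8 d, -1.25, -1.32 and -1.29 at 12 d and -1.51, -1.60 and -1.61 at 15 d. Its 15 d arrays were the lowest, and the difference to 8 d of -0.31 (adjusted p of 0.0027) was -0.09 with arrays at equal deviation (adjusted p of 0.38).

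The probes of methionine synthase, which methylates homocysteine with a folate, went in opposite directions. PSOLI00936 had -0.83, -0.87 and -0.97 at 8 d, -1.12, -1.19 and -1.47 at 12 d and -1.25, -1.52 and -1.53 at 15 d. It was thus below 0 throughout, and all arrays of 12 d and 15 d lay below those of 8 d. PSOLI04228, listed with the same accession number, had 1.16, 1.07 and 1.25 at 8 d, 0.97, 1.00 and 0.88 at 12 d and 1.33, 1.39 and 1.38 at 15 d. It was above 0 on all 9 arrays, lowest at 12 d and highest at 15 d, with no overlap between times. PSOLI00936 differed by -0.37 between 8 d and 12 d (adjusted p of 0.0099) and by -0.17 between 12 d and 15 d (adjusted p of 0.18). For PSOLI04228 the differences were -0.21 (adjusted p of 0.022) and 0.42 (adjusted p of 0.00015), of which the first lost its call without replicate 1 or 3 of 8 d (-0.21 and -0.165) or replicate 3 of 12 d (-0.175). Probe sequences were not used here, so whether both probes bind transcripts of 1 gene or of near-identical copies is uncertain.

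Serine hydroxymethyltransferase (PSOLI04128), which passes 1-carbon units from serine to folate, was the other member of this group above 0. Its means were 0.90 ± 0.062, 0.79 ± 0.047 and 1.15 ± 0.062 (SD, n = 3). Between 12 d and 15 d it rose by 0.36 (adjusted p of 0.0003), or by 0.24 with arrays at equal deviation (adjusted p of 0.0093). Methylenetetrahydrofolate reductase 2 (PSOLI04600), which stands under no heading and makes the folate that methionine synthase uses, had means of 1.07 ± 0.085, 0.88 ± 0.061 and 1.23 ± 0.09 (SD, n = 3). An adenosylmethionine decarboxylase probe (PSOLI04220), for an enzyme that directs S-adenosylmethionine to polyamines, had means of -1.02 ± 0.032, -1.29 ± 0.026 and -1.45 ± 0.061.

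Of the other 6 amino acid probes 5 were below 0. Glutamine synthetase (PSOLI00518), which fixes ammonium into glutamine, had -1.25, -1.31 and -1.19 at 8 d, -1.54, -1.75 and -1.74 at 12 d and -1.92, -1.83 and -1.96 at 15 d. The arrays of the 3 times did not overlap. It fell by 0.65 between 8 d and 15 d (adjusted p of 2.6e-06), with steps of -0.43 up to 12 d (adjusted p of 0.00038) and of -0.23 after it (adjusted p of 0.018). The second step was -0.02 with arrays at equal deviation (adjusted p of 0.9), and it lost its call without replicate 1 of 12 d (-0.16) or replicate 1 or 3 of 15 d (-0.22 and -0.20). A glutamate dehydrogenase (PSOLI03649), which interconverts glutamate and 2-oxoglutarate and stands under no heading, was above 0 with means of 0.96, 0.98 and 1.14.

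Argininosuccinate synthase (PSOLI04292), an enzyme of arginine synthesis, was the only member that lay closer to 0 at 15 d than at 8 d by the test on the deposited values. It had -0.95, -1.26 and -1.13 at 8 d, -0.52, -0.52 and -0.59 at 12 d and -0.68, -0.67 and -0.54 at 15 d. All 8 d arrays lay below those of 12 d and 15 d, which overlapped. The difference between 8 d and 12 d was 0.57 (adjusted p of 7.1e-05), that between 8 d and 15 d 0.48 (adjusted p of 8.9e-05), and with arrays at equal deviation they were 0.63 and 0.61. Acetylornithine aminotransferase (PSOLI04575), which acts earlier in arginine synthesis, had means of -0.79 ± 0.05, -0.85 ± 0.021 and -1.06 ± 0.012 (SD, n = 3), with a difference of -0.27 between 8 d and 15 d (adjusted p of 0.00066), which was -0.12 with arrays at equal deviation (adjusted p of 0.088).

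Both enzymes of branched-chain amino acids among the members were near the threshold at all times. The branched-chain aminotransferase (PSOLI03778), which carries out the last step of their synthesis or the first of their breakdown, had means of -1.00, -1.00 and -1.02. 3-isopropylmalate dehydrogenase (PSOLI01231), of leucine synthesis, was above 0 at 0.85, 0.86 and 1.03. A probe set aside by the rule for the preceding step of leucine synthesis, the large subunit of 3-isopropylmalate dehydratase (PSOLI00330), had means of -2.19, -2.31 and -2.94. An amino acid transporter (PSOLI00840) had means of -0.78, -0.96 and -1.03. Threonine synthase (PSOLI00565), also set aside, had -2.23, -2.42 and -2.84.

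Dihydropyrimidinase (PSOLI04705), which opens the pyrimidine ring in the breakdown of uracil and thymine, was the only nucleotide probe. It had -0.88, -0.85 and -0.79 at 8 d, -0.96, -1.11 and -0.97 at 12 d and -1.10, -1.20 and -1.14 at 15 d. Arrays of 8 d lay above all others and those of 12 d and 15 d overlapped by a narrow margin. The log2 ratio fell by 0.31 between 8 d and 15 d (adjusted p of 0.00062), or by 0.15 with arrays at equal deviation (adjusted p of 0.06). The alpha chain of riboflavin synthase (PSOLI04102), which completes the vitamin that flavin coenzymes are made from, had means of -1.46 ± 0.053, -1.27 ± 0.064 and -1.49 ± 0.092 (SD, n = 3). Its difference between 8 d and 15 d of -0.03 (adjusted p of 0.77) turned to 0.20 with arrays at equal deviation (adjusted p of 0.021).

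The lipid probes showed little common movement between 8 d and 15 d. Of the 8 probes for sterols, fatty acids and sphingolipids 4 differed, 2 higher and 2 lower, where 38.0% of all probes differed. With arrays at equal deviation 2 of the 8 differed, both higher and neither among those 4, where 26.7% of all probes did, namely sterol 24-C-methyltransferase and 4-coumarate-CoA ligase. Sterol 24-C-methyltransferase (PSOLI00286), which uses S-adenosylmethionine to make plant sterols, had means of -1.22 ± 0.049, -1.05 ± 0.14 and -1.07 ± 0.18 (SD, n = 3). A long-chain acyl-CoA synthetase (PSOLI01864), which activates fatty acids, was above 0 at 0.94 ± 0.05, 1.05 ± 0.061 and 1.10 ± 0.055. An alkaline phytoceramidase (PSOLI01725), which releases fatty acids from ceramides, was above 0 as well at 0.82 ± 0.055, 0.85 ± 0.055 and 1.07 ± 0.058. The increase of the last between 8 d and 15 d, 0.25 (adjusted p of 0.0023), was 0.10 with arrays at equal deviation (adjusted p of 0.2).

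The lowest member at 15 d was a lipid probe named only as an expressed protein (PSOLI00557), the 22nd lowest of all probes of the array. It had -1.88, -1.67 and -1.79 at 8 d, -1.63, -1.69 and -1.71 at 12 d and -2.17, -2.16 and -2.29 at 15 d. Only the 15 d arrays stood apart, with a fall of 0.53 after 12 d (adjusted p of 3.9e-05), or of 0.30 with arrays at equal deviation (adjusted p of 0.0078). A hypothetical protein (PSOLI00086) had means of -1.05, -1.20 and -1.34.

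Epoxide hydrolases open epoxides of fatty acids, and both probes of that name stayed near -1. PSOLI00713 had -1.13, -1.20 and -1.13 at 8 d, -1.31, -1.37 and -1.20 at 12 d and -1.22, -1.20 and -1.28 at 15 d. PSOLI04608 had -0.97, -0.95 and -0.98 at 8 d, -1.03, -1.10 and -1.08 at 12 d and -0.84, -0.93 and -1.07 at 15 d. Differences between 8 d and 15 d were -0.08 (adjusted p of 0.29) and 0.02 (adjusted p of 0.82), less than the spread between arrays could tell from 0. The 2 probes carry different accession numbers.

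4-coumarate-CoA ligase (PSOLI00938), an enzyme of phenylpropanoid synthesis that the list places under lipids, was nearest to 0 at 12 d. Its arrays, and those of Patellin-3 below, are given in full because of that course, a choice made after their values were seen. It had -1.00, -1.13 and -0.96 at 8 d, -0.36, -0.49 and -0.55 at 12 d and -0.92, -0.93 and -1.03 at 15 d. All 12 d arrays were nearer to 0 than any other, while 8 d and 15 d overlapped. At 8 d it was past the threshold with a mean of -1.03, and not without replicate 2 of that time (-0.98). The differences of 0.56 between 8 d and 12 d (adjusted p of 2.9e-05) and of -0.49 between 12 d and 15 d (adjusted p of 8.6e-05) were 0.62 and -0.40 with arrays at equal deviation. A cinnamyl-alcohol dehydrogenase family probe (PSOLI04280), for a later step towards lignin, had means of -1.67, -1.64 and -1.90.

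**Figure D4:**
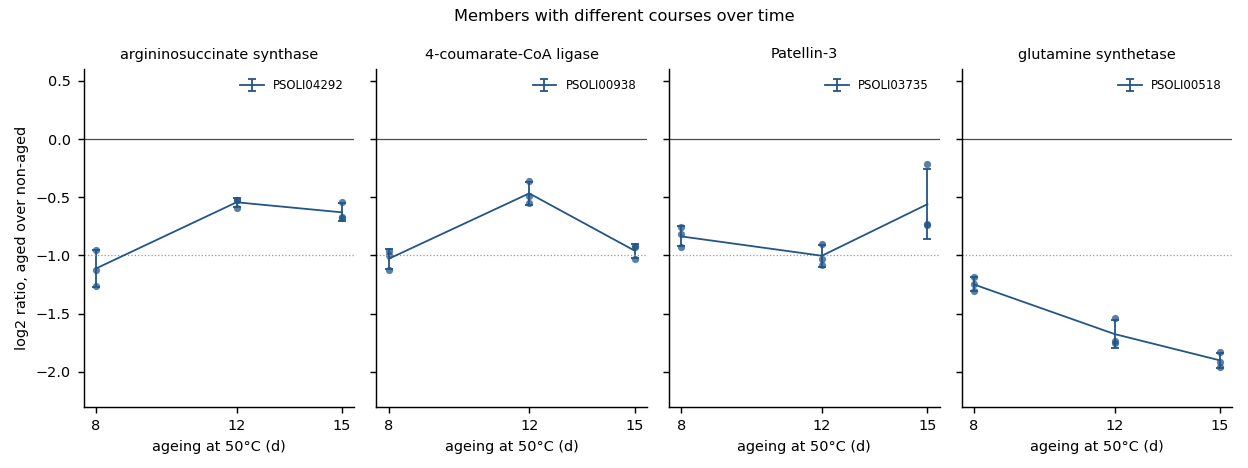
Log2 ratio, aged over non-aged (vertical axis), against days of ageing at 50°C for 4 probes, with 1 point per array and the mean ± SD of 3 arrays joined by a line. Argininosuccinate synthase is lowest at 8 d (-1.11), 4-coumarate-CoA ligase is nearest to 0 at 12 d (-0.47), 1 array of Patellin-3 at 15 d (-0.21) lies apart from the others, and glutamine synthetase falls at each step to -1.90.

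Patellins are proteins with a Sec14 domain, which binds phospholipids, and are known from Arabidopsis in membrane traffic and cell plate formation. One Patellin-5 probe (PSOLI02696) was the highest of all 5246 probes at 15 d. It had 1.80, 1.77 and 1.82 at 8 d, 2.10, 1.95 and 1.96 at 12 d and 2.32, 2.37 and 2.34 at 15 d. The signal of this probe was then 5.07-fold higher than in non-aged seeds. The 3 times did not overlap, and the rise of 0.55 between 8 d and 15 d (adjusted p of 2.7e-06) was 0.23 with arrays at equal deviation (adjusted p of 0.0075). The other Patellin-5 probe (PSOLI01330), with the same accession number, had -0.85, -0.95 and -0.96 at 8 d, -0.96, -0.84 and -0.95 at 12 d and -1.19, -1.17 and -1.24 at 15 d. It was below 0 on every array and lowest at 15 d, by -0.28 from 8 d (adjusted p of 0.00099), or by -0.12 with arrays at equal deviation (adjusted p of 0.15). As for methionine synthase, whether both Patellin-5 probes bind transcripts of the same gene or of near-identical copies is uncertain.

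Patellin-3 (PSOLI03735) had -0.93, -0.82 and -0.76 at 8 d, -0.90, -1.08 and -1.03 at 12 d and -0.73, -0.74 and -0.21 at 15 d. Its SD at 15 d, 0.30, was the largest of any member at any time. Replicate 3 of 15 d lay apart from the others. The difference between 8 d and 15 d was 0.28 (adjusted p of 0.056), and 0.10 without that array (adjusted p of 0.29). With arrays at equal deviation it was 0.38, past the test (adjusted p of 0.012). The difference between 12 d and 15 d was 0.44 (adjusted p of 0.0078), and 0.27 without it (adjusted p of 0.016). At 12 d the mean of -1.00 passed the threshold, and not without replicate 2 (-0.965) or 3 (-0.99) of that time.

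Of the neighbouring lipid probes outside the headings, both oleosins, the proteins that coat oil bodies, were below 0 and lowest at 15 d. P24 oleosin isoform A (PSOLI04150) had means of -1.30, -1.04 and -1.74, and Oleosin 16 kDa (PSOLI04214) of -1.07, -0.91 and -1.41. Those of 3-ketoacyl-CoA synthases, which lengthen fatty acids, were -1.30, -1.80 and -1.68 for number 10 (PSOLI00935) and -0.96, -1.09 and -1.29 for number 11 (PSOLI00732). The neighbours were drawn by product name from the probes of the study's list outside the 6 headings, and so were also picked on these ratios. They were 16 probes, 4 above 0 and 12 below. At 15 d 3 of them were called up-regulated and 10 down-regulated, where 5.64% and 7.09% of all probes were. These counts were not tested. The difference between 8 d and 15 d passed the test in 11 of the 16, where 38.0% of all probes and 78.8% of the list passed. With arrays at equal deviation it passed in 7, where 26.7% and 43.9% did.

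Among the ion probes, mitochondrial superoxide dismutase 2 (PSOLI04797), which removes superoxide, had means of -1.02 ± 0.083, -0.90 ± 0.04 and -1.03 ± 0.06 (SD, n = 3). The outer plastidial membrane porin (PSOLI04405), a channel, had -1.13 ± 0.051, -1.12 ± 0.06 and -1.34 ± 0.079. The plasma membrane proton pump (PSOLI04686), which acidifies the cell wall, was above 0 at 0.74 ± 0.015, 0.74 ± 0.036 and 0.97 ± 0.061. The porin fell by 0.21 between 8 d and 15 d (adjusted p of 0.0089) and the pump rose by 0.23 (adjusted p of 0.003), and neither difference passed the test with arrays at equal deviation (adjusted p of 0.81 and 0.22).

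Heading Q held 9 probes, of which 2 are alcohol dehydrogenases. The other 7, namely 4 cytochromes P450, 2 further oxidative enzymes and 1 transporter, were all below 0. All 7 were called down-regulated at 15 d, where 7.09% of all probes were, but they come from a list chosen on these ratios. Of these 6 fell further between 8 d and 15 d, where 27.4% of all probes and 540 of 717 on the study's list moved further from 0. The differences of the 6 were -0.25 to -0.45, with a median over the 7 of -0.32. With arrays at equal deviation 0 of the 7 passed limma's test, 3 had an unadjusted p under 0.05, and the median difference was -0.11. The lowest was a cytochrome P450 (PSOLI00480) with -1.78, -1.52 and -1.40 at 8 d, -1.60, -1.66 and -1.56 at 12 d and -1.90, -2.00 and -2.14 at 15 d. A second P450 probe with its accession number (PSOLI00478) had -0.88, -1.04 and -1.00 at 8 d, -1.00, -0.91 and -0.98 at 12 d and -1.55, -1.46 and -1.08 at 15 d. In both, 8 d and 12 d overlapped and 15 d lay lower, although 1 array of PSOLI00478 at 15 d was close to the earlier ones. The pleiotropic drug resistance transporter PDR1 (PSOLI04511), of a family that exports small molecules, had -1.25, -1.01 and -1.39 at 8 d, -1.22, -1.37 and -1.00 at 12 d and -1.50, -1.50 and -1.61 at 15 d. Its 15 d arrays were the lowest, but the difference of -0.32 to 8 d (adjusted p of 0.014) lost its call without replicate 2 of 8 d (-0.22) or replicate 3 of 15 d (-0.28), and was -0.11 with arrays at equal deviation (adjusted p of 0.46).

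The remaining 4 probes of this group had means at 15 d of -1.47 for a probe named after desacetoxyvindoline 4-hydroxylase (PSOLI04479), -1.16 for a short-chain dehydrogenase (PSOLI04794), -1.10 for cytochrome P450 71B20 (PSOLI05158) and -1.04 for a P450 family protein (PSOLI04054). The first enzyme name comes from alkaloid synthesis in Catharanthus and belongs to the dioxygenases that use 2-oxoglutarate. PSOLI04054, which was at -0.995 at 15 d without replicate 2 of that time, was the only one of the 7 without a difference between 8 d and 15 d (0.06, adjusted p of 0.58). Outside the headings, the NADPH-cytochrome P450 reductase (PSOLI00512), which feeds electrons to P450 enzymes, had means of -1.27, -1.18 and -1.40. Cytochrome P450 74A (PSOLI00754), which uses lipid hydroperoxides, moved the other way, with means of -1.15, -0.76 and -0.78.

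Both alcohol dehydrogenase probes were above 0 and share an accession number with 2 probes of glutathione-dependent formaldehyde dehydrogenase that the rule sets aside. These enzymes interconvert alcohols and aldehydes. PSOLI03230 had 1.12, 0.71 and 0.92 at 8 d, 1.34, 1.33 and 1.23 at 12 d and 1.45, 1.39 and 1.24 at 15 d. The class III probe (PSOLI04749), the class that includes the formaldehyde-oxidising enzyme, had 1.15, 1.07 and 1.07 at 8 d, 1.13, 0.92 and 0.92 at 12 d and 1.37, 1.13 and 1.22 at 15 d. All 8 d arrays of PSOLI03230 lay below those of 12 d and 15 d, a rise of 0.38 up to 12 d (adjusted p of 0.0063), while the arrays of PSOLI04749 at 15 d met those of both earlier times. The formaldehyde dehydrogenase probes had means of 1.72, 0.85 and 0.66 (PSOLI05002) and of 0.89, 1.07 and 1.06 (PSOLI05210).

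**Figure D5:**
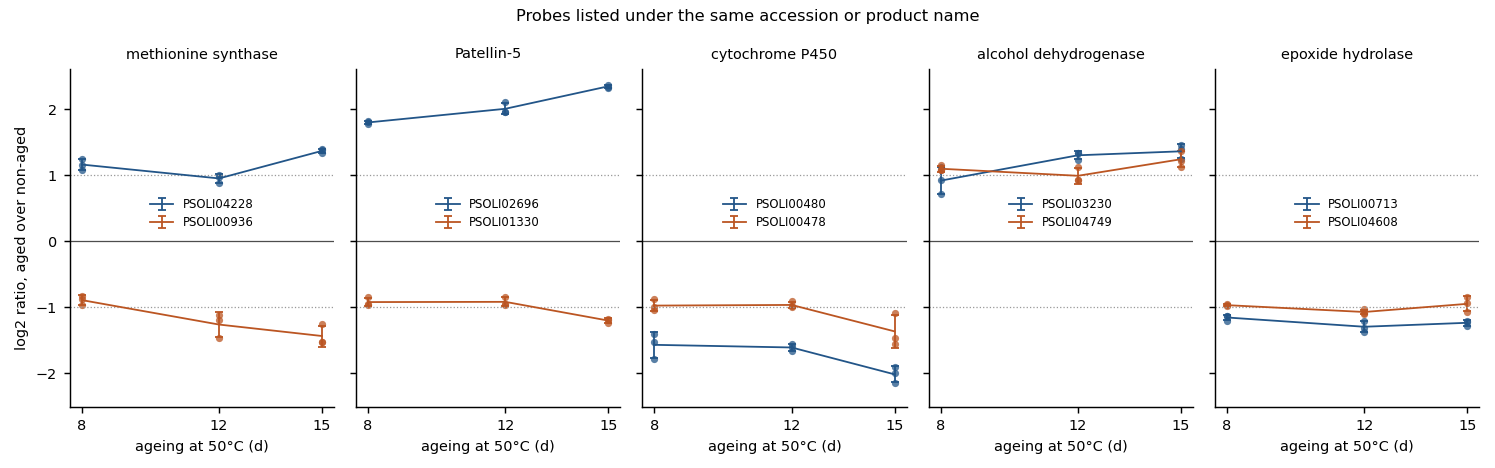
Log2 ratio, aged over non-aged (vertical axis), against days of ageing at 50°C for 5 pairs of probes with the same accession number (methionine synthase, Patellin-5, cytochrome P450, alcohol dehydrogenase) or product name (epoxide hydrolase), with 1 point per array and the mean ± SD of 3 arrays joined by lines. The methionine synthase and Patellin-5 pairs lie on opposite sides of 0 at every time, and the other 3 pairs lie on 1 side.

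When the steps were taken apart, 18 of the 37 members differed between 12 d and 15 d and not between 8 d and 12 d, against 18.0% of all probes and 45.7% of the study's list. Another 5 differed at the first step alone, against 12.4% of all probes and 12.3% of the study's list. They were argininosuccinate synthase, methionine synthase (PSOLI00936), dihydropyrimidinase, a P450 family protein (PSOLI04054) and an alcohol dehydrogenase (PSOLI03230). The step of dihydropyrimidinase, -0.17 (adjusted p of 0.047), lost its call without any 1 of the 9 arrays and with arrays at equal deviation (-0.15, adjusted p of 0.089), and that of PSOLI04054, 0.25 (adjusted p of 0.043), was 0.155 without replicate 1 of 8 d (adjusted p of 0.19). At both steps 5 differed, against 6.18% of all probes and 17.9% of the list. At neither step 9 differed, against 63.4% and 24.1%. A miss of the threshold at a step does not show that the values were equal. The SD over the 3 arrays of a time lay between 0.0058 and 0.30 for the members, with a median of 0.062 against 0.064 for all probes. Dyes were exchanged on replicate 2. When limma was given a dye term, 0 of the 37 members had an unadjusted p under 0.05 for it and 0 passed after adjustment, beside 264 and 0 of the 5246 probes.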

How the data were processed

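Gene expression in pea seeds was measured on 9 arrays with 2 colours, 3 for each ageing time. The authors subtracted background, applied print-tip loess within arrays and scaled between arrays in limma, and deposited 1 log2 ratio per probe, aged over non-aged, with the sign of dye-exchanged replicate 2 already turned. No value was missing. The number of arrays and the steps of 0.01 limit the precision. Spot intensities were not analysed here. The labels and methods do not say if 1 batch of non-aged RNA served all ageing times.

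The arrays entered 1 model in limma 3.58.1 (R 4.3.3) with a mean for every ageing time, two-sided tests and Benjamini-Hochberg adjustment over 5246 probes, checked on simulated data. Python 3.11.15 and pandas 2.3.3 gave the summaries. Headings, product names and accession numbers, but no values, came from the study's list. Of the members' accession numbers 0 matched the reference annotation, so no positions or sequences are given. Members, roles and neighbours were chosen with earlier results of these data known.

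All members may be named. Values on every array are given for members of at least 1.5 in size, those that share an accession number or name, those closer to 0 at 15 d, and the only member of a heading. Alternatives were array scaling and centring, a replicate block, a dye term, leaving out each array, single-time fits, other thresholds, distinct accession numbers, means for medians and putting set-aside probes back. Same-numbered arrays had deviations with r of -0.012 to 0.056, against -0.067 to 0.038 for other arrays, and were not treated as pairs. Such a small r cannot show that the design held no pairing.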

Additional observations from a re-analysis of the deposited data

Results flagged for a closer look

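For 32 of the 37 members the log2 ratio at one ageing time differed from that at another by a limma contrast (adjusted p under 0.05), and the largest such difference in size is given for each. A difference of that kind was found for 47.1% of all probes and 86.3% of the study's list, from which the members were drawn. Lower at 15 d than at 8 d were adenosylhomocysteinase by -0.69, glutamine synthetase by -0.65, S-adenosylmethionine synthetase 1 by -0.56, methionine synthase PSOLI00936 by -0.54, cytochrome P450 PSOLI00480 by -0.45, O-succinylhomoserine sulfhydrylase by -0.31, dihydropyrimidinase by -0.31, the hypothetical protein PSOLI00086 by -0.29, cytochrome P450 71B20 by -0.28, acetylornithine aminotransferase by -0.27, the short-chain dehydrogenase by -0.25 and the amino acid transporter by -0.25. Higher at 15 d than at 8 d were Patellin-5 PSOLI02696 by 0.55, alcohol dehydrogenase PSOLI03230 by 0.44, alkaline phytoceramidase by 0.25, 3-isopropylmalate dehydrogenase by 0.18 and long-chain acyl-CoA synthetase by 0.16.

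Between 12 d and 15 d the expressed protein PSOLI00557 differed by -0.53, cytochrome P450 PSOLI00478 by -0.40, PDR1 by -0.34, the desacetoxyvindoline 4-hydroxylase probe by -0.33, Patellin-5 PSOLI01330 by -0.28, the porin by -0.22 and riboflavin synthase by -0.22. In the same interval Patellin-3 differed by 0.44, methionine synthase PSOLI04228 by 0.42, serine hydroxymethyltransferase by 0.36, class III alcohol dehydrogenase by 0.25 and the proton pump by 0.23. Between 8 d and 12 d argininosuccinate synthase differed by 0.57, 4-coumarate-CoA ligase by 0.56 and the P450 family protein PSOLI04054 by 0.25. The wider spread of the 15 d arrays is not taken out of these values. With arrays at equal deviation many lost their call. Of those between 8 d and 15 d, only adenosylhomocysteinase, glutamine synthetase, S-adenosylmethionine synthetase 1, PSOLI00936, PSOLI02696 and PSOLI03230 kept it. Between 12 d and 15 d only PSOLI00557, Patellin-3, PSOLI04228 and serine hydroxymethyltransferase did. All those named between 8 d and 12 d kept it. Several of the smaller ones did not pass when 1 array was left out: long-chain acyl-CoA synthetase (0.13 to 0.16 without replicate 2 or 3 of 8 d or 1 or 3 of 15 d), 3-isopropylmalate dehydrogenase (0.14 without replicate 3 of 8 d and 0.165 without replicate 2 of 15 d), the amino acid transporter (-0.19 and -0.195 without replicate 3 of 8 d or of 15 d), PDR1 (-0.24 and -0.30 without replicate 3 of 12 d or of 15 d), riboflavin synthase (-0.20 to -0.19 without replicate 1 of 12 d or 1 or 2 of 15 d), the porin (-0.19 and -0.175 without replicate 1 of 12 d or of 15 d) and class III alcohol dehydrogenase (0.215 without replicate 2 or 3 of 12 d and 0.185 without replicate 1 of 15 d). The P450 family protein PSOLI04054 did not pass without replicate 1 or 2 of 8 d, any 1 array of 12 d, or replicate 1 of 15 d (0.155 to 0.27).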

How the results depend on the processing

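With arrays at equal median absolute deviation 11 members differed between 8 d and 15 d (27 as deposited, 7 in both) and 9 between 12 d and 15 d (23 as deposited, 7 in both), and riboflavin synthase (PSOLI04102) turned from -0.03 to 0.20 between 8 d and 15 d. The fold-change threshold set most calls at a time: with a threshold of 1.5 on the log2 scale 1 member was up- and 2 down-regulated at 8 d, 1 and 3 at 12 d and 1 and 7 at 15 d, and with none 9 and 28 passed at 8 d and 9 and 28 at 12 d. With a difference of at least 0.5 asked for as well, 5 members differed from 8 d to 15 d, 2 over the first step to 12 d and 2 over the second.

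Leaving out each array in turn gave 3 to 4 members up- and 16 to 18 down-regulated at 8 d, 3 to 4 and 16 to 17 at 12 d, and 8 to 9 and 22 to 25 at 15 d. Between 8 d and 15 d 24 to 27 differed, with 22 in every such fit, between 12 d and 15 d 19 to 24, with 16 in every fit, and between 8 d and 12 d 6 to 9, with 5 in every fit. The lowest of the last, 6, came without replicate 1 of 8 d and without replicate 1 of 12 d. With the replicate number as a block, 28 members differed from 8 d to 15 d, now with Patellin-3, 10 over the first step and 23 over the second, and all 111 calls at a time were the same. The numbers share no stated origin.

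Means in place of medians lay nearer to 0, since each of these headings holds probes of both signs: -0.42, -0.50 and -0.51 at 8, 12 and 15 d for E, -0.49, -0.43 and -0.45 for I, -0.47, -0.43 and -0.47 for P and -0.64, -0.60 and -0.79 for Q. With the set-aside probes put back the median of E at 12 d was -0.96, that of H -1.35 at 8 d and -1.78 at 15 d, and that of P -0.14, -0.078 and -0.03. The number of arrays, 3 per time, limits what differences can be seen.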
